A study of Mus musculus with 4 samples.

Results

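The open chromatin around 8 genes of the Kruppel-like factor (KLF) family, namely Klf2, Klf3, Klf4, Klf6, Klf7, Klf9, Klf10 and Klf13, was described in mouse bone marrow-derived macrophages (BMDMs). A region here is a stretch of DNA covered by an ATAC-seq peak of at least 1 of 4 libraries, peaks that overlapped by 1 bp or more being merged. A region was taken as a member when its highest peak carried the name of 1 of the 8 genes, the files naming each peak after the gene with the nearest transcription start site (TSS) in the annotation they used. In RefSeq, which lists more non-coding genes, another gene started nearer to 97 of the 128 members, a long non-coding gene in 87 cases, so a name gives position and not a target. In all, 128 of 60710 regions met this rule, 74 of them within 100 kb of the TSS and 54 farther away. KLFs are transcription factors with C2H2 zinc fingers that bind GC-rich and CACCC sequences in promoters and enhancers. In macrophages and other myeloid cells several of them shape activation. Klf2 is known to restrain inflammatory activation and Klf6 to promote it, whereas Klf4 is known to cooperate with STAT6, the transcription factor that IL-4 activates, during alternative polarization.

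ATAC-seq uses the Tn5 transposase to insert sequencing adapters into accessible DNA. BMDMs came from wild-type mice aged 8-12 weeks on a C57BL/6 background and were differentiated for 6 days with L929 supernatant, which supplies macrophage colony-stimulating factor. The control libraries (n = 2) came from cells without IL-4, and the IL-4 libraries (n = 2) from cells given IL-4 at 20 ng/ml for 1 h. All groups were cultured primary cells of 1 genotype. The paper calls the 2 ATAC-seq replicates biological. The labels do not say whether the replicates came from separate animals, so that p-values measure only the spread between these libraries. A whole-culture assay cannot tell a change in every cell from a change in the share of cells.

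The libraries held 39462 to 45250 peaks. Peak height denotes the deposited peak score, read as -log10 of the MACS2 q-value. It states the evidence for a peak within 1 library, grows with sequencing depth and is no read count, and the depth is unknown. The IL-4 replicate 2 library was the lowest, with a median height of 8.86 over the regions found in all 4 libraries against 11.01 to 12.52 in the others, and with a peak in 77 of the 128 KLF regions against 90 to 101. Of 8 macrophage genes, 7 had a peak within 1 kb of the TSS in every library, the exception being Csf1r, which had none. Of 11 genes that mark T cells, B cells, NK cells, erythroid cells, neutrophils, epithelium or fibroblasts, Epcam alone had such a peak, in 1 library (IL-4 replicate 1).

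The KLF regions with the clearest difference between control and IL-4 libraries lay far upstream of Klf4 and Klf7, and sequences of 3 of them are shown first. Capitals mark TTCNNNNGAA, the 4-base spacing preferred by STAT6, or TTCNNNGAA, with 3 bases between, which other STAT factors favour. The Klf7 region at -174.2 kb holds 2 matches of the 4-base spacing. Of the other two, the Klf4 region at -538.4 kb holds 2 matches of the 3-base spacing and that at -209.1 kb holds neither. Sequences are from GRCm38.p6, the assembly behind mm10, and cover the matches or the middle of the highest peak.
Klf7 region at -174.2 kb, chr1:64295411-64295710, + strand: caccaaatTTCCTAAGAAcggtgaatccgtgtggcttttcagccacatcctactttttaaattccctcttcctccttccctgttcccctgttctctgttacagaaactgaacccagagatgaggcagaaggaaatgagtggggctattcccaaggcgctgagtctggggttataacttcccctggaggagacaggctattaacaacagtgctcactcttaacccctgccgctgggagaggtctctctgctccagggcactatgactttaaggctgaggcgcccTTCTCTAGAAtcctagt
Klf4 region at -538.4 kb, chr4:56070889-56071088, + strand: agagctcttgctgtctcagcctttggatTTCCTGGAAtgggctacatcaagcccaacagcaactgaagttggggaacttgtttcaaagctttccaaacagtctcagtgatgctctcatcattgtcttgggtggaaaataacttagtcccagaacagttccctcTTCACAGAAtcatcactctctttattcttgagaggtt
Klf4 region at -209.1 kb, chr4:55741488-55741687, + strand: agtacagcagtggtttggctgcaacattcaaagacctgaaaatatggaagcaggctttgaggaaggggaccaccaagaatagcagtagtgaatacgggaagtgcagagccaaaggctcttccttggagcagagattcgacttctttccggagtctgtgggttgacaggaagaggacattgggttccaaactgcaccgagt

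The first question was where the open regions of each gene lay. Klf4 had 40 regions, which placed it at rank 7 of the 16244 genes with a region, where the median gene had 2. Klf6 had 27 regions (rank 46) and Klf7 had 18 (rank 212). Klf3, which encodes a repressor that recruits CtBP corepressors, had 11. Klf2 and Klf10 had 9 each, Klf13 had 8 and Klf9 had 6. Klf10 is a TGF-beta-inducible factor, Klf9 a glucocorticoid-responsive one, and Klf13 a factor first studied in T cell chemokine expression. Distant regions made up 42.2% of the KLF regions and 11.1% of all regions, and 104 of the 128 (81.2%) were annotated as intergenic against 35.8% of all regions. Distance to the TSS was part of the rule, so these shares are a description.

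Of the 54 distant regions, 30 belonged to Klf4, 13 to Klf6, 9 to Klf7, and 1 each to Klf9 and Klf10. The direction differed between genes. The distant regions of Klf4 were all upstream, reaching -589.5 kb, into a stretch where the next protein-coding gene in RefSeq, Actl7b, starts 1207.5 kb away. The regions of Klf6 were all downstream except the one at its promoter, reaching 332.2 kb, while the next coding gene on that side, Pitrm1, is 677.7 kb away. Klf7 regions extended upstream to -184.3 kb. When Klf4 regions were divided wherever neighbours were more than 50 kb apart, a division chosen after seeing the distances, 5 groups resulted. The largest held 19 regions between -306.2 and -186.3 kb, of which 9 were present in all 4 libraries and 7 in only 1.

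**Figure D1:**
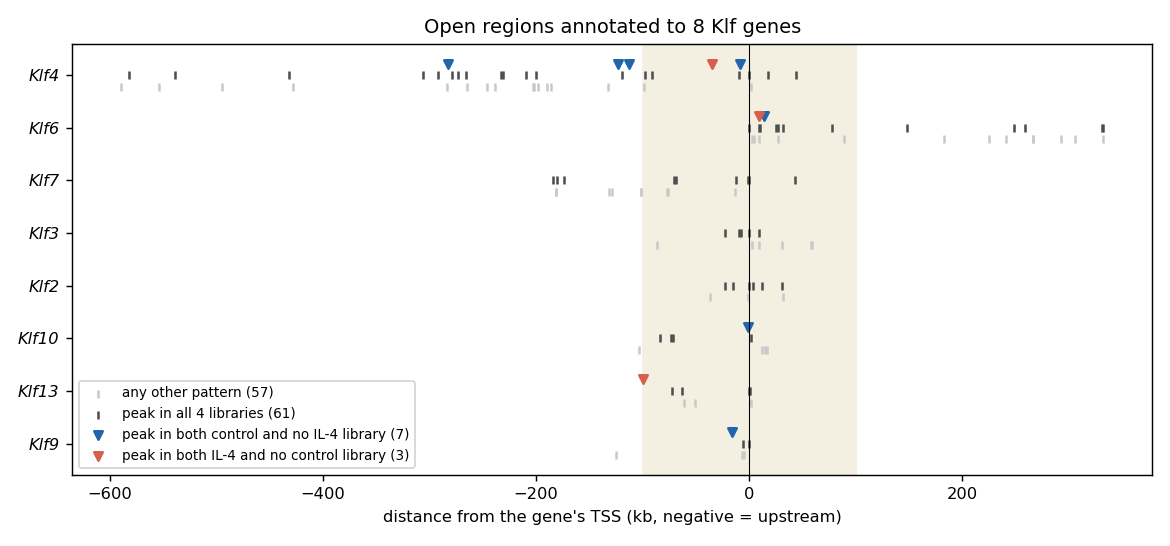
Position of the 128 KLF regions, with distance from the TSS in kb on the x axis, 1 row per gene, and the marker giving the pattern of peaks. The shaded band marks 100 kb on each side. Distant regions are upstream for Klf4 and Klf7 and downstream for Klf6, while every region of Klf2, Klf3 and Klf13 lies in the band.

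The regions just inside the 100 kb limit were Klf13 at -99.3 kb, with heights of 5.34 and 3.73 in the IL-4 libraries and no control peak, and Klf4 at -98.9 kb, with heights of 3.76, 6.29 and 4.69 in control replicate 2 and the IL-4 libraries. Just outside were Klf7 regions at -101.2 kb, with a height of 2.93, and at -101.4 kb, with 8.58, both in IL-4 replicate 1 alone, and a Klf10 region at -103.4 kb. The last had heights of 5.53 in control replicate 1 and 3.73 in IL-4 replicate 2.

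Of the 128 KLF regions, 61 (47.7%) had a peak in all 4 libraries, against 41.9% of all regions. These shared regions had heights in each library and could be compared by limma. A further 33 KLF regions (25.8%, against 29.6% of all regions) had a peak in 1 library only, with heights of 2.05 to 8.58 (median 4.38). Such single-library regions came from control replicate 1 in 16 cases (12.5% of KLF regions against 9.38% of all regions). IL-4 replicate 1 gave 8 (6.25% against 6.66%), control replicate 2 gave 7 (5.47% against 6.69%) and IL-4 replicate 2 gave 2 (1.56% against 6.84%).

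The promoter comparison asked whether IL-4 for 1 h altered the accessibility at the start of each gene. All 8 regions nearest to a TSS had a peak in every library, and none of them passed the adjusted threshold of 0.05 by limma. Of these, 7 lay within 1 kb of the start. That of Klf10 lay in intron 1, at 1.4 kb. In the order control replicate 1, control replicate 2, IL-4 replicate 1, IL-4 replicate 2, the Klf4 promoter (chr4:55532383-55533087) had heights of 13.77, 12.25, 11.74 and 15.83. The Klf7 promoter (chr1:64121562-64122124) had heights of 34.01, 25.27, 31.93 and 16.79. A second Klf7 region annotated as promoter (chr1:64122182-64122405), 52 bp from the RefSeq start, had 6.7, 12.21, 9.8 and 12.14. The Klf9 promoter (chr19:23140656-23141322) had 30.78, 21.21, 24.19 and 27.49. In each of these 3 genes the groups overlapped.

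The Klf2 promoter (chr8:72318747-72319298) had heights of 15.82, 25.69, 27.36 and 12.46, and the Klf13 promoter (chr7:63938682-63939353) had 19.28, 21.68, 26.61 and 18.52. In both the groups overlapped as deposited. After normalisation the Klf13 heights no longer overlapped, with log2 values of 4.08 and 4.43 in the control and 4.67 and 4.45 in the IL-4 libraries. The Klf3 promoter (chr5:64802872-64803683) had 20.05, 21.39, 16.19 and 15.82, and the Klf6 promoter (chr13:5861063-5861609) had 16.52, 17.79, 13.06 and 9.92. In these genes both IL-4 heights lay below both control heights as deposited, and after normalisation this held for Klf6 but not for Klf3. The intronic Klf10 region (chr15:38298922-38299634) had 13.08, 8.98, 11.43 and 6.78, again with overlapping groups.

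By the mean of the 4 heights the order was Klf7 (27.0), Klf9 (25.9), Klf13 (21.5), Klf2 (20.3), Klf3 (18.4), Klf6 (14.3), Klf4 (13.4) and Klf10 (10.1). The place of Klf7 rests on the start used in the peak annotation, as the region at its RefSeq start had a mean of 10.2. The ranges of every 2 neighbours in this order overlapped. Within single libraries Klf3 was above Klf6 and Klf4 above Klf10 in 4 of 4, while each of the other 5 pairs of neighbours changed order in at least 1 library. Height is evidence and not an amount of DNA, so the order is one of peak evidence. After quantile normalisation, the log2 height change (IL-4 minus control) ranged from -0.37 ± 0.36 (SE) at the Klf6 promoter to 0.30 ± 0.28 at the Klf13 promoter, with adjusted p between 0.832 and 0.988 by limma (two-sided, Benjamini-Hochberg over 25442 regions). At the Klf4 promoter the change was 0.29 ± 0.38. An interval of 2 SE on each side therefore still spans changes of more than 0.5 in either direction at Klf2 and Klf10, and a p over the threshold does not show that promoters stayed alike.

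**Figure D2:**
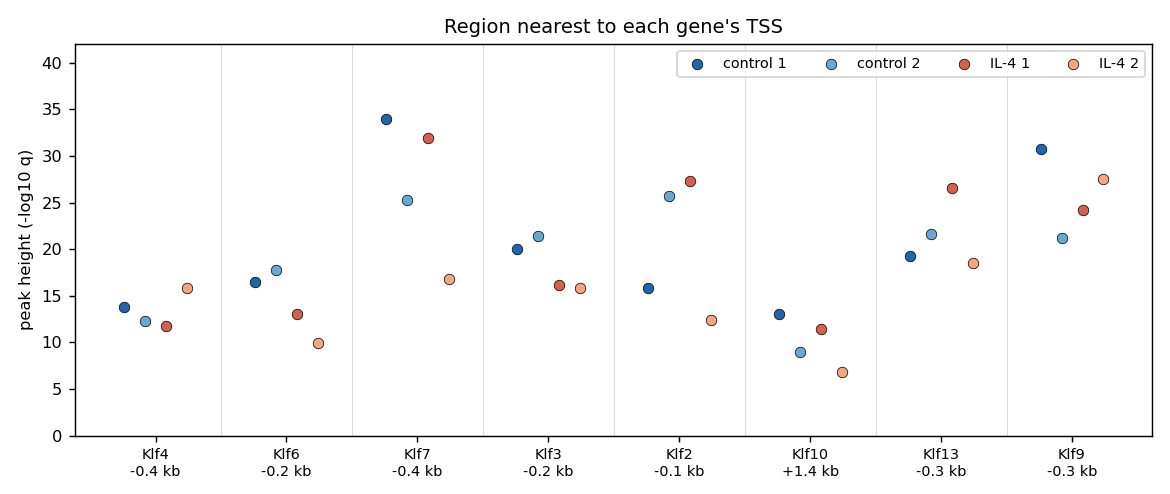
Peak height (-log10 q) of the region nearest to each gene's TSS in the 4 libraries, 1 point per library. The control and IL-4 points overlap for Klf4, Klf7, Klf2, Klf10, Klf13 and Klf9, and both IL-4 points lie below both control points for Klf6 and Klf3.

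The RefSeq promoter table holds 7 of the 8 genes (all but Klf10), and all 7 windows, each of 300 bases around the start, overlap a region shared by all libraries. The CACCC box that KLFs bind, searched as CCACNCCC on both strands, was present in 17.6% of 32851 promoters. Among the 7 it was in those of Klf7 (1 match) and Klf13 (2 matches, as 2 or more are in 3.32% of promoters). The Klf7 window lies around the start used in the peak annotation, and not at the RefSeq gene start (chr1:64122345). Its match falls outside the overlapping open region, which begins at chr1:64121562 and holds no CCACNCCC. The windows of Klf7 and Klf13 are shown with the matches in capitals.
Klf7 promoter, chr1:64121340-64121639, - strand: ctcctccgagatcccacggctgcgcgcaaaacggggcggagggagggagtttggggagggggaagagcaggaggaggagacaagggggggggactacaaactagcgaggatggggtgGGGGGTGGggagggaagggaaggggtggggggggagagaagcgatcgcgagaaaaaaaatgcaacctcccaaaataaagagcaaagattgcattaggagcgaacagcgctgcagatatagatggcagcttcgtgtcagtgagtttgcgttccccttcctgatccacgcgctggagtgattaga
Klf13 promoter, chr7:63938866-63939165, - strand: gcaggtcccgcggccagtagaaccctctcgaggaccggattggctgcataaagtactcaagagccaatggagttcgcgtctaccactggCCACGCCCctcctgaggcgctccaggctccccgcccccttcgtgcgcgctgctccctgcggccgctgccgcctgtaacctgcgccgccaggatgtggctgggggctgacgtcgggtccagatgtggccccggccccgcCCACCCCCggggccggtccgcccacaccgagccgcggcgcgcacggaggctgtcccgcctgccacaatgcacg

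Across the 61 shared KLF regions, 0 passed the adjusted threshold of 0.05 by limma, and 4 had an unadjusted p under 0.05, all with the greater height after IL-4. Over all 25442 shared regions, 0.0157% passed the adjusted threshold in the higher direction and 0.00786% in the lower direction. The unadjusted share was 4.12% higher and 4.15% lower, so that 4 of 61 (6.56%) and 0 of 61 are to be read against those. After normalisation the groups did not overlap in 14 KLF regions with higher and 8 with lower IL-4 heights, which are 23.0% and 13.1%, against 19.2% and 18.6% of all shared regions. Heights as deposited gave 6 higher and 18 lower, which are 9.84% and 29.5%, against 8.83% and 29.3% of all shared regions, the lower median height of IL-4 replicate 2 being one value that moved with this count, and its part was not tested.

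All 4 regions with an unadjusted p under 0.05 lay beyond 100 kb, 3 of them upstream of Klf4 and 1 upstream of Klf7, and 3 of the 4 are described here. The Klf7 region at -174.2 kb (chr1:64295293-64295897) had control heights of 5.39 and 8.44 and IL-4 heights of 19.96 and 16.98. It was annotated as intergenic in the files and overlaps the RefSeq long non-coding gene Gm35803. Both IL-4 values were over the higher control value by a wide margin. After normalisation the log2 height change was 1.67 ± 0.43 (SE, n = 2 per group), a 3.19-fold normalised height, with an adjusted p of 0.173 by limma. It ranked 23 by p among the 12702 shared regions with a positive change.

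The Klf4 region at -209.1 kb (chr4:55741388-55741781) had control heights of 9.52 and 7.41 and IL-4 heights of 14.03 and 16.23, a change of 1.08 ± 0.42 (adjusted p = 0.451 by limma). The Klf4 region at -538.4 kb (chr4:56070648-56071105) had control heights of 6.28 and 4.58 and IL-4 heights of 10.67 and 9.83, a change of 1.18 ± 0.51 (adjusted p = 0.538 by limma). In both regions the groups did not overlap, and neither passed the adjusted threshold.

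Leaving out 1 library changed these counts. Without control replicate 2, 1 of the 61 regions passed the adjusted threshold by limma. Without IL-4 replicate 2, an unadjusted p under 0.05 was found in 2 regions in the higher and 2 in the lower direction, and without IL-4 replicate 1 in 4 and 1.

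**Figure D3:**
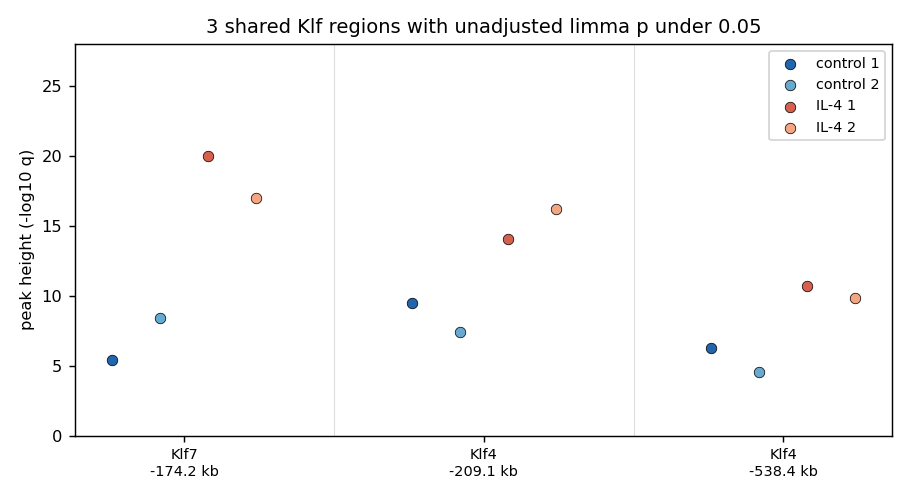
Peak height (-log10 q) in each library of 3 shared KLF regions with an unadjusted limma p under 0.05, ordered by p. In every region both IL-4 points (red and light red) lie above both control points (blue and light blue), and none of the 3 passes the adjusted threshold.

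Shared KLF regions near to and far from the TSS were then set side by side. The 40 shared regions within 100 kb had a median log2 height change of -0.07, with 15 positive and 25 negative, and ranged from -0.74 to 0.52. The 21 distant ones had a median of 0.23, with 12 positive and 9 negative, and ranged from -0.55 to 1.67. Over all shared regions the medians were -0.0035 within and 0.024 beyond 100 kb. An unadjusted p under 0.05 in the higher direction was found in 0 of 40 near and 4 of 21 distant KLF regions, against 3.86% and 6.62% of all regions at those distances.

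The median of the distant regions was 0.53 between the libraries numbered 1 and 0.10 between those numbered 2. It became 0.081 without IL-4 replicate 1, 0.478 without control replicate 2 and 0.452 without IL-4 replicate 2, and that of the near regions became -0.16 without control replicate 1 and -0.039 without IL-4 replicate 1. With the limit at 50 kb in place of 100 kb, the median beyond it was -0.0088, so the sign turned.

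By gene, Klf4 had 19 shared regions with a median change of -0.07, composed of 6 near regions with a median of -0.09 and 13 distant regions with a median of 0.21. Between the libraries numbered 1 the Klf4 medians were -0.11 near and 0.75 distant, and between those numbered 2 they were 0.13 and -0.02, so the order turned. Klf6 had medians of -0.37 over 7 near regions and 0.42 over 5 distant ones. Klf7 had medians of 0.09 over 6 near and 0.44 over 3 distant regions. The differences between near and distant regions were not tested. All 5 shared regions of Klf3 had negative changes, from -0.40 to -0.04, as had all 4 of Klf10, from -0.74 to -0.05. Of the remaining genes, Klf2 had 2 positive and 4 negative regions, Klf13 had 2 and 2, and both Klf9 regions were positive. None of these regions had an adjusted p below 0.617 apart from the 4 with an unadjusted p under 0.05.

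**Figure D4:**
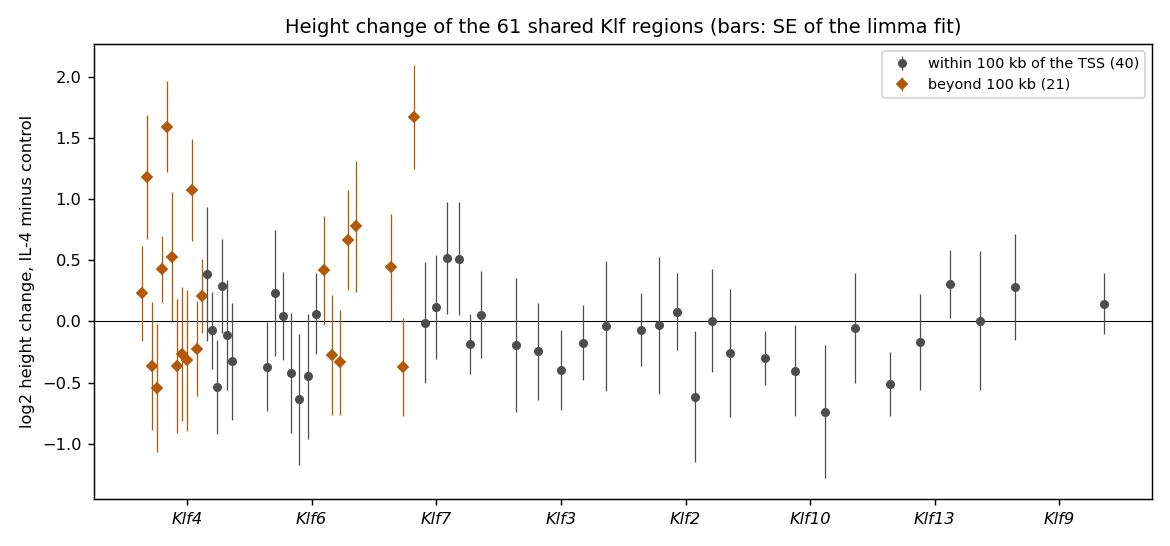
Log2 height change (IL-4 minus control, normalised heights) of the 61 shared KLF regions, grouped by gene and ordered by position within a gene, with the SE of the limma fit as bars. Circles are the 40 regions within 100 kb of the TSS and diamonds the 21 beyond it. Only diamonds of Klf4 and Klf7 lie above 1.

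The highest shared region differed in place from gene to gene. It was the promoter region for Klf9 in 4 of 4 libraries and for Klf3 and Klf7 in 3. For Klf2 the promoter and a region at -23.2 kb had near-equal mean heights of 20.33 and 20.19, and the latter was the higher in 3 of 4 libraries. For Klf10 it lay at -84.2 kb (chr15:38384657-38385084), with control heights of 36.6 and 31.73 and IL-4 heights of 25.67 and 25.51. Both IL-4 values lay below both control values, and the normalised change was -0.30 ± 0.22 (adjusted p = 0.773 by limma). This was the highest KLF region in the series, at percentile 96.9 of the mean height of shared regions.

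For Klf13 the highest region lay at -73.0 kb (chr7:64011621-64012124), with heights of 34.98 and 29.17 in the control and 32.25 and 12.48 in the IL-4 libraries. IL-4 replicate 2 stood apart there, and the change of -0.51 ± 0.26 (adjusted p = 0.617 by limma) became 0.0072 without that library. For Klf4 it lay at -291.8 kb (chr4:55824049-55824375), with control heights of 18.56 and 22.24 and IL-4 heights of 29.42 and 19.93, so that the groups overlapped. The change was 0.43 ± 0.27. This place rests on the mean height, as in control replicate 1 the Klf4 region at -118.9 kb was higher, with 22.55. For Klf6 the region with the highest mean lay at 78.1 kb downstream (chr13:5939448-5939669), with 19.59 and 14.81 in the control and 19.67 and 12.1 in the IL-4 libraries. Its change was 0.06 ± 0.33. Other Klf6 regions were higher in single libraries. These were the region at 258.4 kb in control replicate 1 (20.11), the promoter in control replicate 2 (17.79) and the region at 330.6 kb in IL-4 replicate 2 (13.36).

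Some regions had a peak in both libraries of 1 group and in no library of the other. Of the 128 KLF regions, 3 (2.34%) were IL-4-only and 7 (5.47%) control-only, against 2.53% and 4.33% of all regions. No test was made, since the presence of a peak depends on its threshold and all of these heights were low.

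The IL-4-only regions were within 100 kb, and their sequences follow. None holds a match of TTCNNNNGAA or TTCNNNGAA, so they stand wholly in lower case. The Klf4 region is 117 bp long, and a window of 200 bp around its middle, which reaches past its ends, does hold TTCNNNNGAA.
Klf4 region at -34.8 kb, chr4:55567264-55567380, + strand: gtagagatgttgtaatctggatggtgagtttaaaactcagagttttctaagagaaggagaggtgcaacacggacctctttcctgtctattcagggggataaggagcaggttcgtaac
Klf6 region at 9.6 kb, chr13:5871017-5871207, + strand: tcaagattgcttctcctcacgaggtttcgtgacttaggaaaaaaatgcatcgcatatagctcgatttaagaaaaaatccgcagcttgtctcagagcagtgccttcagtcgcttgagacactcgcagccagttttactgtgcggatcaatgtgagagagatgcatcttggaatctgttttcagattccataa
Klf13 region at -99.3 kb, chr7:64038074-64038263, + strand: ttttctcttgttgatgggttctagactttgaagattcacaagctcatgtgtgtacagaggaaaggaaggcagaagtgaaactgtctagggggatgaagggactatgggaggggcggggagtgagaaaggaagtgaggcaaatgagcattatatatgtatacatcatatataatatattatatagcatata

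Klf4 at -34.8 kb lies within the RefSeq long non-coding gene Gm12506 and had heights of 5.34 and 2.49 in the IL-4 libraries. The Klf6 region at 9.6 kb, just past the gene end, had 3.25 and 3.91. The Klf13 region at -99.3 kb had 5.34 and 3.73. The study designed primers against RNA made at an element it placed 34 kb upstream of Klf4. The forward primer ggactccaaaagatggatcg and the reverse primer gaatggactcaaggggtcag match chr4:55567883-55567942 in GRCm38.p6, a product of 60 bases. No region covers it, and the nearest is the IL-4-only region, 503 bp away.

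The control-only regions were led by Klf9 at -15.8 kb (chr19:23125267-23125491), with 6.93 and 7.15. Klf4 had 4 of them, at -123.1 kb with 7.28 and 5.45, at -282.5 kb with 6.52 and 4.42, at -112.6 kb with 6.96 and 3.78, and at -8.9 kb with 6.68 and 1.79. The last of these falls under a score of 2 in 1 library, which corresponds to the q of 0.01 that the methods name. Klf6 had 1 at 14.1 kb with 5.37 and 4.99, and Klf10 had 1 at -1.6 kb with 4.37 and 5.01.

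**Figure D5:**
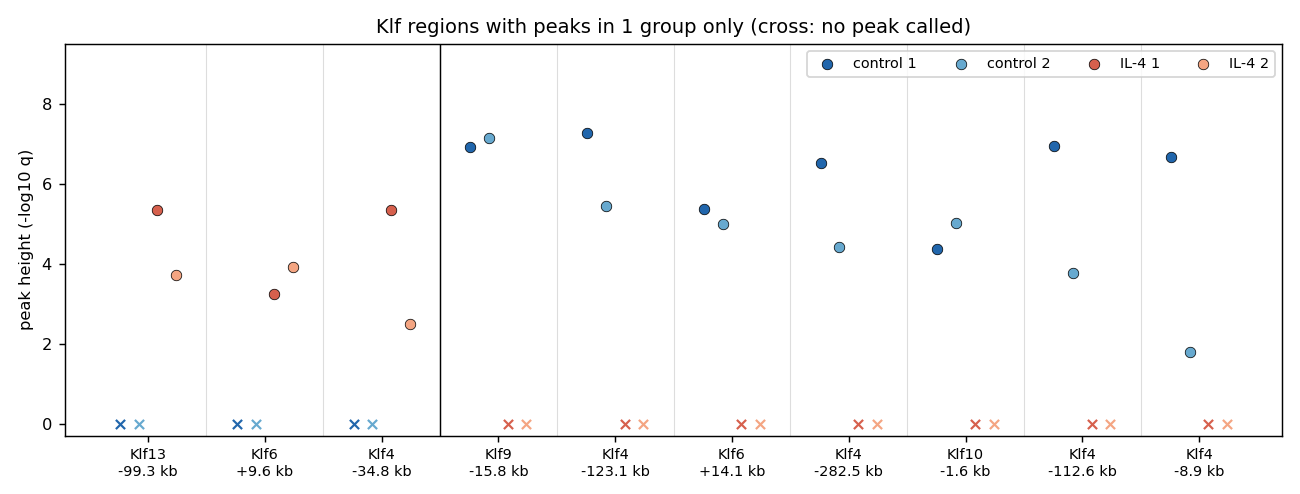
Peak height (-log10 q) in each library of the 3 IL-4-only (left of the line) and 7 control-only KLF regions, with a cross at 0 where no peak was called. All heights lie between 1.79 and 7.28.

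The motifs were counted over every member, since the rule did not use sequence. TTCNNNNGAA was found in 11 of 128 KLF regions (8.59%) against 7.22% of all regions, and TTCNNNGAA in 13 (10.2%) against 6.90%. Both motifs read the same on either strand, and 422 of all regions hold both, as does no KLF region. CCACNCCC was in 17 (13.3%) against 12.3%, and TGANTCA, the AP-1 sequence, in 44 (34.4%) against 21.8%. The median length was 223 bases for KLF regions and 209 for all regions, so the search was repeated in windows of 200 bp around the middle of the highest peak. There TGANTCA was in 41 KLF regions (32.0%) against 20.7% of all, and TTCNNNNGAA in 9 (7.03%) against 6.32%. TTCNNNGAA was in 9 (7.03%) against 5.85%. CCACNCCC was in 11 (8.59%) against 9.9%, so its share was then the lower one in KLF regions.

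Klf6 had the most TGANTCA, in 14 of its 27 regions, followed by Klf4 with 12 of 40. Of the 11 regions with the 4-base spacing, 4 belonged to Klf7, 3 to Klf4, 2 to Klf6 and 2 to Klf2, and 9 of the 11 were shared by all 4 libraries. The 9 included the Klf7 region at -174.2 kb, with TTCCTAAGAA and TTCTCTAGAA. For comparison, the 4-base spacing was in 8.92% of all shared regions, in 26.2% of the 1049 with an unadjusted p under 0.05 in the higher direction, in 4.82% of the 1057 in the lower direction, in 30.9% of the IL-4-only regions and in 2.24% of the control-only ones.

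Of the 9 shared regions with the 4-base spacing, 6 had a positive and 3 a negative change, and in 5 the normalised IL-4 heights lay above both control heights. As deposited this held in 3. Over all shared regions, with or without the spacing, the share was 19.2% after normalisation and 8.83% as deposited. The share among all shared regions with the spacing was not counted, so the 9 are given as values only. The Klf6 region at 331.7 kb had heights of 4.80 and 4.38 in the control and 7.16 and 6.23 in the IL-4 libraries, a change of 0.78 ± 0.54 (adjusted p = 0.755 by limma). The Klf4 region at -273.0 kb had 5.53 and 6.15 and then 8.82 and 5.65, and the Klf7 region at -184.3 kb had 8.60 and 10.93 and then 12.37 and 10.01, so that both overlapped as deposited but not after normalisation.

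The change was negative or near 0 in the other 4 regions. The Klf4 region at -265.7 kb holds TTCCTCAGAA and had heights of 8.39 and 4.39 in the control and 5.1 and 3.43 in the IL-4 libraries. The Klf2 region at -15.2 kb holds TTCCTCTGAA and had 9.7 and 3.46 in the control and 6.62 and 3.56 in the IL-4 libraries. The Klf6 region at 27.0 kb had 14.52 and 6.97 and then 3.62 and 8.56, and the Klf2 region at 12.3 kb had 13.52 and 10.36 and then 12.37 and 8.11. In all 4 the groups overlapped.

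The rest of the family and its known partners were taken as lists. Of 9 other Klf genes (Klf1, Klf5, Klf8, Klf11, Klf12, Klf14, Klf15, Klf16 and Klf17), 7 had regions, 22 in all, of which 8 were shared, and none of the shared ones had an unadjusted p under 0.05. A single IL-4-only region lay in intron 5 of Klf12, at 217.7 kb, with heights of 6.05 and 5.05. Of the 22 regions 2 were control-only, 1 at the Klf8 promoter with 4.28 and 2.36 and 1 at 14.7 kb from the Klf15 TSS with 5.65 and 3.76, and over all regions the shares were 2.53% IL-4-only and 4.33% control-only. Of the 9 Sp genes, whose factors bind GC boxes through like zinc fingers, 7 had regions, 39 in all. These held 2 IL-4-only, 3 control-only and 14 shared regions. An unadjusted p under 0.05 was found in 1 of the 14 (7.14%), in the higher direction, against 4.12% of all shared regions. This region lay at the Sp4 promoter. There the heights were 32.5 and 33.54 in the control and 41.17 and 40.3 in the IL-4 libraries, a change of 0.39 ± 0.19 (adjusted p = 0.597 by limma).

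The partner list held 12 genes taken as regulators and partners of KLFs, namely kinases, Mef2 factors, corepressors, coactivators and Zc3h12a. They had 104 regions, 57 of them shared. Among these, 3 had an unadjusted p under 0.05 in the higher direction and 1 in the lower direction, which are 5.26% and 1.75% against 4.12% and 4.15% of all shared regions. The higher share is close to that of all regions, and the 4 regions are given as values only. A region in intron 2 of Ctbp2, the corepressor of Klf3, had heights of 4.43 and 5.47 in the control and 11.57 and 11.33 in the IL-4 libraries, a change of 1.42 ± 0.51 (adjusted p = 0.389 by limma). A region in intron 2 of Zc3h12a, which encodes an endoribonuclease that degrades cytokine mRNA, had 4.39 and 3.27 in the control and 7.29 and 10.21 in the IL-4 libraries (adjusted p = 0.428 by limma), and 1 at 13.0 kb from its TSS had 5.21 and 2.93 and then 9.25 and 6.57. A region 53.0 kb upstream of Mef2a, which encodes a factor that drives Klf2 expression, had 29.97 and 24.04 in the control and 17.96 and 7.22 in the IL-4 libraries, a change of -1.04 ± 0.32 (adjusted p = 0.284 by limma). None of the shared regions of these 3 lists passed the adjusted threshold.

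Over the 4 libraries, 33, 33, 26 and 24 of the Klf4 regions had a peak. The genes with the most similar counts, by Euclidean distance over the 4 libraries, were Sgms1 with 33, 27, 29 and 21 (distance 7.35), Btg1 with 29, 26, 25 and 25 (distance 8.19) and Foxp1 with 26, 28, 25 and 27 (distance 9.16).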

How the data were processed

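The authors aligned ATAC-seq reads to mm10, called peaks with MACS2 in each library without pooling replicates, removed blacklisted regions and annotated peaks with HOMER. The submitters' processing notes name BWA 0.7.10, SAMtools 0.1.19, MACS2 2.0.10 and HOMER 4.2. Handling of the Tn5 offset and of duplicates is not given in the sources used here. The deposited score was read from its values as -log10 of the q-value. Read counts were not used here, so depth is unknown and no count model was run.

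Peaks of chromosomes 1 to 19, X and Y were merged at 1 bp overlap (bedtools 2.31.1 gave the same 60710 regions). For the 25442 regions found in all 4 libraries, log2 heights were quantile-normalised and compared by limma 3.58.1 under R 4.3.3 (eBayes with trend, two-sided, Benjamini-Hochberg, threshold 0.05). The fit and the merging were tested on simulated data. The 8 genes, the lists and the limits were chosen with earlier results of these data known. Regions named were the one nearest to each TSS, the highest shared one per gene, the group-only ones (up to 8 per group), and the shared ones with an unadjusted p under 0.05 moving alike in both numbered pairs (up to 12), of which 1 is not reported here. In Klf7 the files count from a start 956 bp inside the RefSeq gene. No peak lay beyond a chromosome end of GRCm38.p6. Alternatives were another scaling, no trend, a replicate term, a score minimum, wider merging, another gene assignment, a 50 kb limit and leaving out each library.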

Additional observations from a re-analysis of the deposited data

How the results depend on the processing

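None of the KLF regions passed the adjusted threshold by median scaling, no trend, a score of at least 2, merging within 500 bp or assignment by the peak nearest to a TSS. The replicate numbers are shared by the groups but do not pair the samples by any label, and same-numbered libraries did not deviate together (r = 0.0068 across regions). With the replicate block, 1 KLF region passed, and calls over all regions went from 6 to 14, and to 0 without the trend. With a limit of 50 kb, 1 IL-4-only region lay beyond it. With 1 peak in the other group tolerated, IL-4-only regions among the 128 numbered 7 within and 1 beyond 100 kb, against 4342 of all 60710 regions. Control-only regions among the 128 numbered 9 within and 9 beyond, against 7893 of all 60710. In the central 200 bp of a region, CCACNCCC was found in 11 KLF regions (8.59%) against 9.9% of all regions.

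Leaving out each library in turn gave medians of -0.16 to -0.039 within and 0.081 to 0.478 beyond 100 kb. IL-4-only KLF regions then numbered 4 to 6 within and 0 to 6 beyond 100 kb, against 2608 to 5687 over all genes. Control-only KLF regions numbered 5 to 12 within and 6 to 11 beyond, against 4375 to 8326 over all genes. With 1 library left in a group, that library is assumed to vary like the other group. The sign turned in some of these fits at the promoters of Klf2 (-0.38 to 0.53), Klf4 (-0.075 to 0.65), Klf7 (-0.48 to 0.11) and Klf9 (-0.072 to 0.36), in the Klf10 intron (-0.25 to 0.14), at Klf6 78.1 kb (-0.12 to 0.25) and at Klf13 -73.0 kb (-1.02 to 0.0072). The 4 regions with an unadjusted p under 0.05 kept a positive change, from 0.81 to 2.10. The cause of these shifts was not tested.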

Other observations

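A total of 16 of the 128 KLF regions, and 8071 of all 60710 regions, had a peak in 3 of the 4 libraries and so entered no fit. The following were chosen after their values were seen. A Klf7 region at -13.2 kb had no peak in control replicate 1, a height of 4.95 in control replicate 2, and 10.94 and 12.23 in the IL-4 libraries. A Klf4 region at -494.4 kb had 17.23 and 15.87 in the control libraries, 9.33 in IL-4 replicate 1 and no peak in IL-4 replicate 2. A Klf4 region at -132.5 kb had 12.33, 6.15 and 1.86 in the same libraries, and a Klf13 region at -51.0 kb had 28.17, 10.99 and 10.4. Of the 16 regions, 7 lacked a peak in IL-4 replicate 2 alone, the library with the fewest peaks. They are 5.47% of KLF regions, against 5.79% of all regions with that pattern. In 1 region a peak was lacking in control replicate 2 alone (0.781% against 2.86%).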
